A study of Mus musculus with 6 samples.

Results

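The 10 genes described here encode subunits of the AP-1 group of transcription factors: the Fos family (Fos, Fosb, Fosl1 and Fosl2), the Jun family (Jun, Junb and Jund), Atf3, and the small Maf proteins Maff and Mafk. They were chosen by symbol, through the NCBI gene identifiers of the table, out of 18446 genes measured. All 10 were found, and all 10 had a mean of 1 FPKM or more over the 6 libraries, the level used to count genes (10347 genes passed it). FPKM counts fragments scaled for transcript length and library size, so levels can be compared between genes per unit of length.

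The RNA came from naive CD4+ T cells, sorted as CD44lo CD62Lhi from the spleen and lymph nodes of C57BL/6 mice of 6 to 8 weeks. The study crossed 2 genotypes, wild type (WT) and Zak-/-, with 3 times of culture, 0 h, 6 h and 48 h. Anti-CD3 and anti-CD28 antibodies served as the stimulus, and they engage the T cell receptor and its costimulatory receptor. There were 6 libraries, 1 per group, so a difference between any pair of libraries has no replicate check, and no error or p-value is printed. A fit that pools a genotype difference over the 3 times was not made here. The labels write the genotype as Zak-/- and elsewhere describe a deletion limited to T cells; they name no Cre driver and do not say how many mice each library came from. Zak, encoded by Map3k20, is a MAP kinase kinase kinase that can activate the JNK and p38 kinases.

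AP-1 factors bind DNA as dimers held together by a leucine zipper. Fos proteins pair with Jun proteins, whereas Jun proteins can also pair with each other, and their activity is set both by transcription and by phosphorylation, for which JNK acting on Jun is the textbook case. In T cells AP-1 binds beside NFAT at cytokine genes after costimulation. Small Maf proteins lack a transactivation domain of their own and pair with larger partners such as Nrf2 (Nfe2l2) and the Bach repressors.

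The deposited values summed to between 496045 and 546113 FPKM per library. The read number is not known, but the commonest low value of genes with transcripts of about 1 kilobase was 0.06 or 0.07 FPKM in every library, taken here as about 1 fragment. Map3k20 did not separate the genotypes as labelled: it stood at 0.17 and 0.10 FPKM at 0 h, 0.19 and 0.10 at 6 h and 1.35 and 1.61 at 48 h, with WT given before the other label each time. A gene-level value cannot show whether an exon was deleted, so those samples are named by their label alone, as labelled Zak-deficient. The 7 T cell markers examined summed to 1951 FPKM or more in every library. The 5 myeloid markers summed to 0.61 to 1.33 FPKM, and the 6 B cell markers to 3.33 to 7.66. The 2 CD8 markers summed to 8.88 to 12.78 FPKM, above the B cell sum in every library. Most of this was Cd8b1 (8.11 to 12.04 FPKM). In bulk RNA, fewer cells that express a gene and less RNA per cell cannot be told apart.

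These genes have few exons, a trait of many immediate early genes, which respond to a stimulus without new protein synthesis. Their transcripts were not all short. Those of Fosl2 (6537 bases), Fosb (3782), Jun (3189) and Mafk (3097) exceeded the median of 2872 bases, and the others lay below it. In the GENCODE M21 transcript used for each gene, Jun, Junb and Jund had a single exon, as did 1.9% of the genes past the filter; the other 7 had 3 or 4 exons, against a median of 9. The pentamer ATTTA, the core of the AU-rich elements that mark short-lived messages, occurred 4 times in the 3' UTR of Fos, Jun and Maff, 8 times in that of Fosl2 and once each in those of Fosb, Fosl1 and Jund. Per kilobase of 3' UTR it was most frequent in Fos (4.91) and Junb (4.12) and lowest in Fosb (0.47), where the median gene had 1.21. Its density was above that median in 9 of 10 genes.

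The DNA just before an annotated start site of Fos, Fosb, Jun, Junb and Atf3 is shown. RefSeq (GRCm38.p6) promoter windows of 300 bases, 250 before an annotated start site and 50 after it, were at hand for 9 of the 10 genes. These 5 were the genes whose window, the first listed where there were several, also held the start of the GENCODE transcript. The 130 bases before the start lie at chr12:85473760-85473889 (plus strand), chr7:19310046-19310175, chr4:95052223-95052352, chr8:84978749-84978878 and chr1:191183334-191183463 (all minus strand). Capitals mark matches to the motifs that were searched.
Fos: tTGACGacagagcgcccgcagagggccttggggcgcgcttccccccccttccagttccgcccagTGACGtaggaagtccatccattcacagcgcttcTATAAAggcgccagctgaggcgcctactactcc
Fosb: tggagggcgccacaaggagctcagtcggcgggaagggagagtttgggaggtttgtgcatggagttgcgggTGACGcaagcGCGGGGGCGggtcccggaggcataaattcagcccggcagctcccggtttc
Jun: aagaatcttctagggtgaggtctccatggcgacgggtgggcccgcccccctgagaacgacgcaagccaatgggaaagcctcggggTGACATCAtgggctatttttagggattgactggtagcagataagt
Junb: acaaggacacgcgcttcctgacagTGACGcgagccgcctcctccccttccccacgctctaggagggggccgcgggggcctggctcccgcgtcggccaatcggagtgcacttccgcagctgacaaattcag
Atf3: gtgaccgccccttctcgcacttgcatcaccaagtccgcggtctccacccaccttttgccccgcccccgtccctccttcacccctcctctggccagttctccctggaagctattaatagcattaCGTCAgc
The motifs were TGACGTCA (the cAMP response element, CRE), its core TGACG, the ATF-like site TGACATCA, the AP-1 site TGANTCA, the EGR site GCGNGGGCG and the CArG box of serum response factor on both strands, and TATAAA on the sense strand. A core inside a CRE was not counted again. In the full windows the core TGACG was found in 4 of the 5 genes (Fos, Fosb, Junb and Atf3), and in 20.8% of 32851 windows of the same length. Fos held it at -129 and at -66 from the start and TATAAA at -33, which 8.32% of windows carry. Jun held the ATF-like site at -45 (3.62% of windows) and Fosb the EGR site at -50 (5.55% of windows). The start site of the Fosb window lies inside the gene span given below, so its TGACG and EGR site fall within the annotated gene. Junb carried TATAAA at position 1, just after the annotated start. None of the 5 windows held a full CRE (1.79% of windows), an AP-1 site (7.81%) or a CArG box (1.63%); these matches describe letters in a short window and say nothing on binding.

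After 6 h of stimulation Atf3, Fosl1 and Fos rose in both genotypes, while the abundant members changed less. All 10 genes stood higher at 6 h than at 0 h under both labels, although that of Jund in WT (log2 difference 0.06) became -0.03 when each library was rescaled to a common sum. Folds of single genes are of FPKM+1, and the added 1 FPKM understates changes of low genes. Ratios of family sums are of plain FPKM. A gene was called when log2(FPKM+1) differed by 1 or more, which is 2-fold on that scale. By this rule 3 of 10 members were called higher in WT, where 8.93% of all genes were, and 4 of 10 in the libraries labelled Zak-deficient, where 9.08% were. No member was called lower, against 1.39% and 1.52% of genes. Fosl1 and Atf3 stood under 1 FPKM at rest under both labels and passed the filter only through the stimulated libraries. The members were also chosen with earlier results of these data known, so these counts are a description. The median log2 difference of the 10 was 0.65 in WT and 0.89 under the other label, beside -0.06 and -0.08 over all genes. Gene positions below are from RefSeq GRCm38.p6.

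**Figure D1:**
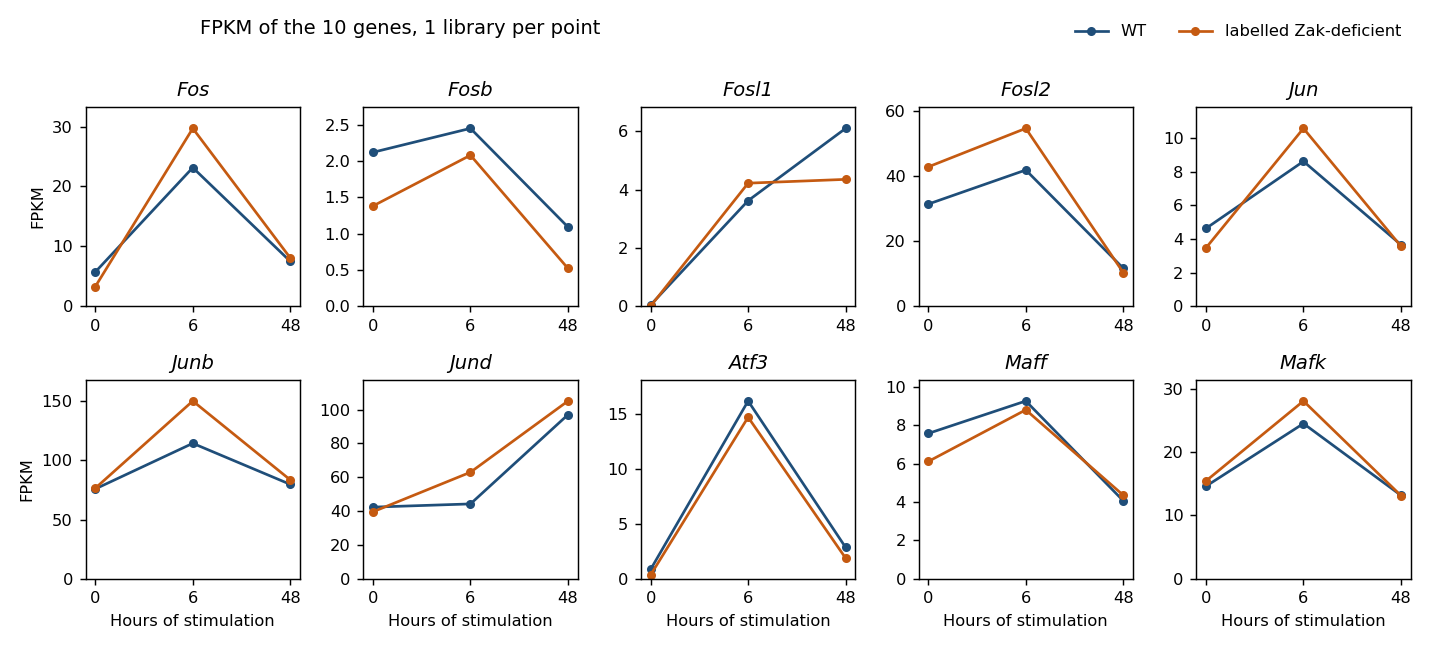
FPKM (vertical axes, from 0, each scaled to its gene) of the 10 genes at 0, 6 and 48 h (categories, not spaced by time) in WT (blue) and libraries labelled Zak-deficient (orange); each point is 1 library and there are no error bars. In 8 genes the 6 h libraries are the highest under both labels, whereas Fosl1 and Jund are highest at 48 h. For Fosl1 under the label Zak-deficient the margin is small (4.35 against 4.22 FPKM).

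Fos (gene ID 14281, chr12:85473890-85477274), the founding member of its family and a classic immediate early gene, stood at 5.70, 23.15 and 7.48 FPKM at 0, 6 and 48 h in WT. In the libraries labelled Zak-deficient it stood at 3.26, 29.71 and 8.05 FPKM. The 6 h value was thus the highest under each label, and the resting value the lowest. Fos was 3.6-fold higher at 6 h than at 0 h in WT, more than 97.2% of genes, and 7.21-fold higher under the other label. It was 2.85-fold and 3.39-fold lower again at 48 h than at 6 h.

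Fosb (gene ID 14282, chr7:19302696-19310118), whose promoter window carries the EGR site shown above, was the lowest member on average. It stood at 2.12, 2.45 and 1.09 FPKM in WT and at 1.38, 2.08 and 0.52 under the label Zak-deficient. Each of its libraries labelled Zak-deficient lay below the WT library of the same time. Only the 6 h to 48 h difference under the label Zak-deficient was called (2.03-fold lower), and the value at 48 h there corresponded to about 28 fragments.

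Fosl1 (gene ID 14283, chr19:5447698-5455938), which encodes Fra-1, was close to absent at rest. It stood at 0.04 FPKM in the 0 h WT library, about 1 fragment, and was listed at 0 in the library labelled Zak-deficient, so no fold is given. At 6 h it reached 3.62 and 4.22 FPKM, and at 48 h 6.10 and 4.35. Both 48 h values were thus above those at 6 h, whereas Fos, Fosb and Fosl2 stood lower at 48 h than at 6 h under both labels. For Fosl1 under the label Zak-deficient this log2 difference was 0.04. It became -0.05 with a common sum and -0.09 with median-ratio scaling. Its log2(FPKM+1) difference at 6 h was 2.15 in WT and 2.38 under the label Zak-deficient; with 5 FPKM added in place of 1 it was 0.77 and 0.88 and no longer past the rule.

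Fosl2 (gene ID 14284, chr5:32136472-32157840), which encodes Fra-2, was the most abundant Fos gene in every library. It stood at 31.35, 41.82 and 11.62 FPKM in WT and at 42.78, 54.61 and 10.29 FPKM in the libraries labelled Zak-deficient. The 48 h libraries were the lowest under both labels, below those at rest. Fosl2 was 1.32-fold and 1.27-fold higher at 6 h than at 0 h, which is not a call, and fell 2.56-fold and 3.88-fold at 48 h against 0 h.

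Atf3 (gene ID 11910, chr1:191170296-191183333), a stress-inducible factor that can pair with Jun proteins, had the largest 6 h change of the 10 genes with 1 FPKM added. With 0.1 FPKM added Fosl1 exceeded it (4.73 against 4.1 on the log2 scale in WT, 5.43 against 5.04 under the other label), and with 5 FPKM added Fos did under the label Zak-deficient (2.07 against 1.88). It stood at 0.85, 16.22 and 2.86 FPKM in WT and at 0.35, 14.74 and 1.88 FPKM under the label Zak-deficient. Its value was thus highest at 6 h, and at 48 h it was still above rest (2.09-fold and 2.13-fold). The difference at 6 h was 9.31-fold in WT, where 0.5% of genes had a higher one, and 11.66-fold under the other label. The resting values rest on about 28 and 10 fragments. From 6 h to 48 h it fell 4.46-fold and 5.47-fold.

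Jun (gene ID 16476, chr4:95049036-95052222), the founding Jun gene and substrate of JNK, was the lowest of its family. It stood at 4.62, 8.61 and 3.65 FPKM in WT and at 3.46, 10.57 and 3.56 FPKM under the label Zak-deficient. Its 6 h increase was called in the libraries labelled Zak-deficient (2.59-fold), whereas the WT difference was 1.71-fold and below the rule; the difference between these responses was 1.52-fold and is taken up below. At 48 h it was back near the resting level, 2.07-fold and 2.54-fold below 6 h.

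Junb (gene ID 16477, chr8:84976909-84978748), which restrains Jun in several settings and is needed by some helper T cell programs, was the most abundant of the 10 genes at 0 and 6 h. It stood at 75.85, 114.39 and 79.71 FPKM in WT and at 76.46, 150.12 and 83.47 FPKM under the label Zak-deficient. The 6 h library was the highest under both labels, by 1.5-fold and 1.95-fold over rest, neither of which is a call. The latter passed 2-fold (log2 1.03) when libraries were scaled by median-ratio size factors.

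Jund (gene ID 16478, chr8:70697739-70700616), which is known for steady expression in resting cells, followed another course. It stood at 42.36, 44.26 and 97.01 FPKM in WT and at 39.58, 62.99 and 105.09 FPKM under the label Zak-deficient. The 48 h libraries were the highest, 2.26-fold and 2.61-fold above rest, and both were called. At 6 h Jund differed from rest by 1.04-fold in WT and 1.58-fold under the other label.

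The small Maf genes were both highest at 6 h under each label. Maff (gene ID 17133, chr15:79346621-79359078) stood at 7.57, 9.26 and 4.06 FPKM in WT and at 6.11, 8.80 and 4.35 FPKM under the label Zak-deficient, lowest at 48 h in both. Mafk (gene ID 17135, chr5:139791536-139802653) stood at 14.62, 24.53 and 13.18 FPKM in WT and at 15.45, 28.09 and 13.14 FPKM under the other label, highest at 6 h in both, by 1.63-fold and 1.77-fold over rest. No 6 h or 48 h difference of either gene from rest was called. From 6 h to 48 h Maff was called lower in WT (2.03-fold) and Mafk under the label Zak-deficient (2.06-fold), while the other difference of each was 1.83-fold for Maff and 1.80-fold for Mafk.

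At 48 h against 0 h the members went both ways. In WT, 3 of 10 were called higher (Fosl1, Jund and Atf3) and 1 lower (Fosl2), where 17.8% and 12.3% of all genes were. Under the label Zak-deficient 4 were called higher, Fos (2.12-fold) in addition, and 1 lower, beside 18.4% and 12.0% of genes. These counts lie within 3 genes of the background shares. The added call of Fos was lost with a common sum (log2 0.97) and with 5 FPKM added (0.66). Atf3 in WT was also lost with a common sum, just under the rule, and with 5 FPKM added (0.43). With 5 FPKM added, Atf3 (0.36) and Fosl1 (0.90) were below the rule under the label Zak-deficient. From 6 h to 48 h, 5 members were called lower and 1 higher (Jund) in WT, where 6.14% and 9.32% of genes were. Under the label Zak-deficient 6 were called lower and 0 higher, against 6.55% and 10.8% of genes. These comparisons share the 6 h libraries with those of 6 h against 0 h, and so are not independent of them.

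The order of the 3 times was the same under both labels in 9 of 10 genes. In 8 genes both 6 h libraries were the highest, and the exceptions were Fosl1 and Jund. For Fosl1 under the label Zak-deficient, 48 h exceeded 6 h by 0.04 on the log2 scale. It fell below 6 h with a common sum or median-ratio scaling. Jun was the gene whose order differed: its 48 h value lay below rest in WT (log2 difference -0.27) and at rest under the label Zak-deficient (0.03).

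**Figure D2:**
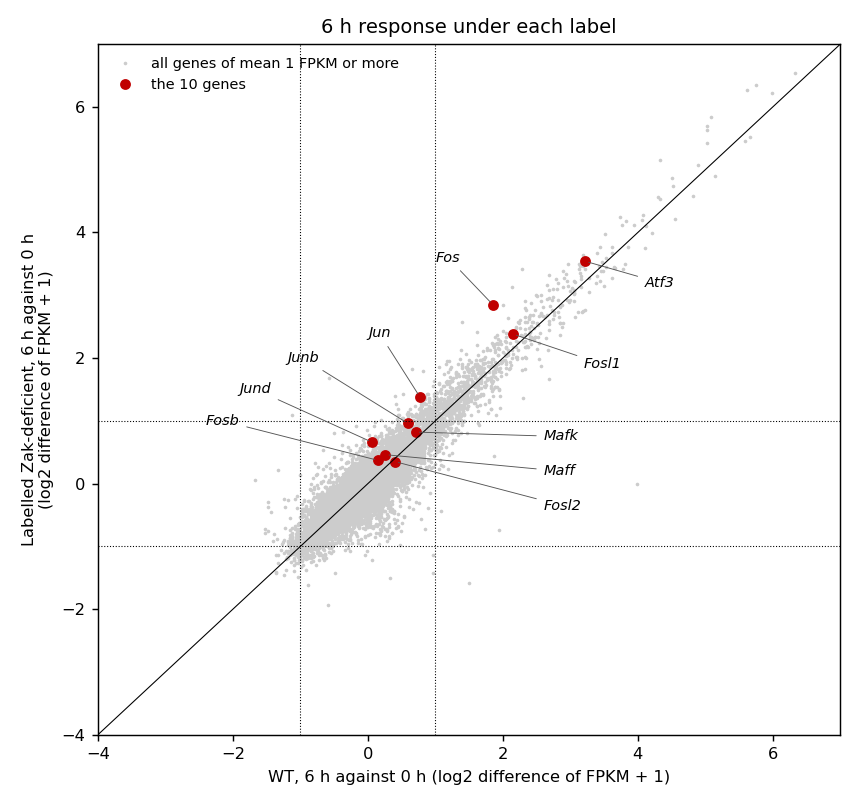
Log2 difference of FPKM + 1 at 6 h against 0 h in WT (horizontal) and in the libraries labelled Zak-deficient (vertical) for the 10 genes (red) and all 10347 genes of mean 1 FPKM or more (grey); the solid line marks equal responses and the dotted lines the 2-fold rule. Fos lies at 1.85 and 2.85, above the line, and Atf3 furthest along it at 3.22 and 3.54.

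The makeup of the families differed between the times under both labels. The Fos genes summed to 39.21, 71.04 and 26.29 FPKM at 0, 6 and 48 h in WT and to 47.42, 90.62 and 23.21 FPKM under the label Zak-deficient. The Jun genes summed to 122.83, 167.26 and 180.37 FPKM in WT and to 119.50, 223.68 and 192.12 FPKM under the other label. The Fos sum at 48 h was thus lower than at rest while the Jun sum was higher, under both labels. From 6 h to 48 h the Jun sum went up in WT and down under the label Zak-deficient. The ratio of Jun to Fos family FPKM was 3.13, 2.35 and 6.86 in WT and 2.52, 2.47 and 8.28 under the label Zak-deficient.

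Within the Fos family, Fosl2 made up 80.0% of the sum at rest in WT, 58.9% at 6 h and 44.2% at 48 h. In the libraries labelled Zak-deficient these shares were 90.2%, 60.3% and 44.3%. Fos itself took 14.5%, 32.6% and 28.5% in WT and 6.9%, 32.8% and 34.7% under the other label, so that its share at 48 h was below that at 6 h in WT and above it under the other label. Fosl1 reached 23.2% and 18.7% at 48 h. Within the Jun family, Junb led at rest (61.8% and 64.0%) and at 6 h (68.4% and 67.1%). Jund led at 48 h, with 53.8% and 54.7%, whereas Jun never exceeded 5.1%. These are shares of RNA, and protein was not measured.

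**Figure D3:**
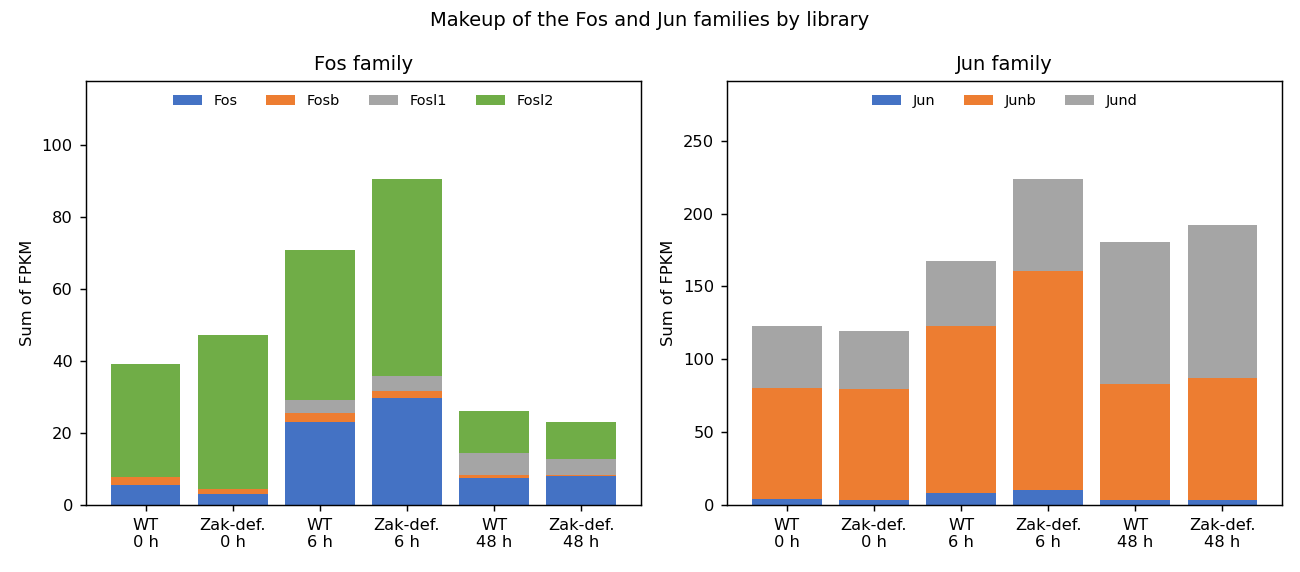
Sum of FPKM (vertical axes, from 0) of the 4 Fos family genes (left) and the 3 Jun family genes (right) in each of the 6 libraries, stacked by gene; there is 1 library per bar and no error. The Fos stack is highest at 6 h and mostly Fosl2 at rest, and at 48 h Jund makes up 53.8% of the Jun stack in WT and 54.7% under the label Zak-deficient.

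Between the genotype labels no member passed 2-fold at any time. The shares of all genes that did were 0.271% at 0 h, 0.242% at 6 h and 2.23% at 48 h, so few calls are found among 10 genes at such a rate. The median size of the members' log2 differences was 0.30 at 0 h, 0.23 at 6 h and 0.10 at 48 h, beside 0.08, 0.14 and 0.09 over all genes.

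At rest 7 of 10 members stood lower in the library labelled Zak-deficient, beside 51.9% of all genes. Fosl1 is counted among them on a difference of about 1 fragment (0.00 against 0.04 FPKM). Fos differed most, 3.26 against 5.70 FPKM (1.57-fold lower), and 0.3% of all genes had a lower log2 difference. The values of Fos rest on about 98 and 200 fragments. These estimates use 1-fragment values rounded to 0.07 and 0.06 FPKM and are too rough to compare between libraries. Atf3 (0.35 against 0.85 FPKM), Fosb (1.38 against 2.12) and Jun (3.46 against 4.62) also stood lower, by 1.37-fold, 1.31-fold and 1.26-fold. With 0.1 FPKM added in place of 1, the log2 difference of Atf3 was -1.08 and past the rule. Fosl2 went the other way, at 42.78 against 31.35 FPKM (1.35-fold higher, with 1.5% of genes above it). Other immediate early genes went along: 25 of 28 lay below 0 at rest (median -0.16), among 51.9% of all genes. This list was drawn up with earlier results of these libraries known, and is not independent evidence. The B cell markers summed to 7.25 FPKM in the library labelled Zak-deficient and 3.33 in WT at this time; their part in the result was not tested.

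Beside 46.5% of all genes, 7 of 10 members stood higher at 6 h in the library labelled Zak-deficient. Of these, Fos, Fosl1, Jun and Jund had been lower there at rest, and Fosl2, Junb and Mafk higher at both times, although Junb at rest became -0.03 on the log2 scale with median-ratio scaling. Jund stood at 62.99 against 44.26 FPKM (1.41-fold, with 1.3% of genes above it), Junb at 150.12 against 114.39 (1.31-fold), Fosl2 at 54.61 against 41.82 (1.3-fold) and Fos at 29.71 against 23.15 (1.27-fold). The members lower there were Fosb, Atf3 and Maff, with log2 differences of -0.16, -0.13 and -0.07; that of Maff came to 0.00 on the log2 scale with a common sum. The 3 Jun genes together stood at 223.68 against 167.26 FPKM, a ratio of 1.34, and the Fos genes at 90.62 against 71.04, a ratio of 1.28. At 48 h, 4 members stood higher and 6 lower, beside 45.7% and 53.9% of all genes. Fosb (log2 -0.46), Atf3 (-0.42) and Fosl1 (-0.41) were the lowest and lay outside the central 95% of all genes. Jund was the highest (0.11), and Mafk, counted as lower, was near level (13.14 against 13.18 FPKM). The ratios of the family sums were 1.07 for Jun and 0.88 for Fos. Under median-ratio scaling, which moved the median of all genes from -0.01 to -0.17 at 48 h, the 4 higher members (Fos, Junb, Jund and Maff) came out lower and the Jun ratio was 0.95.

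**Figure D4:**
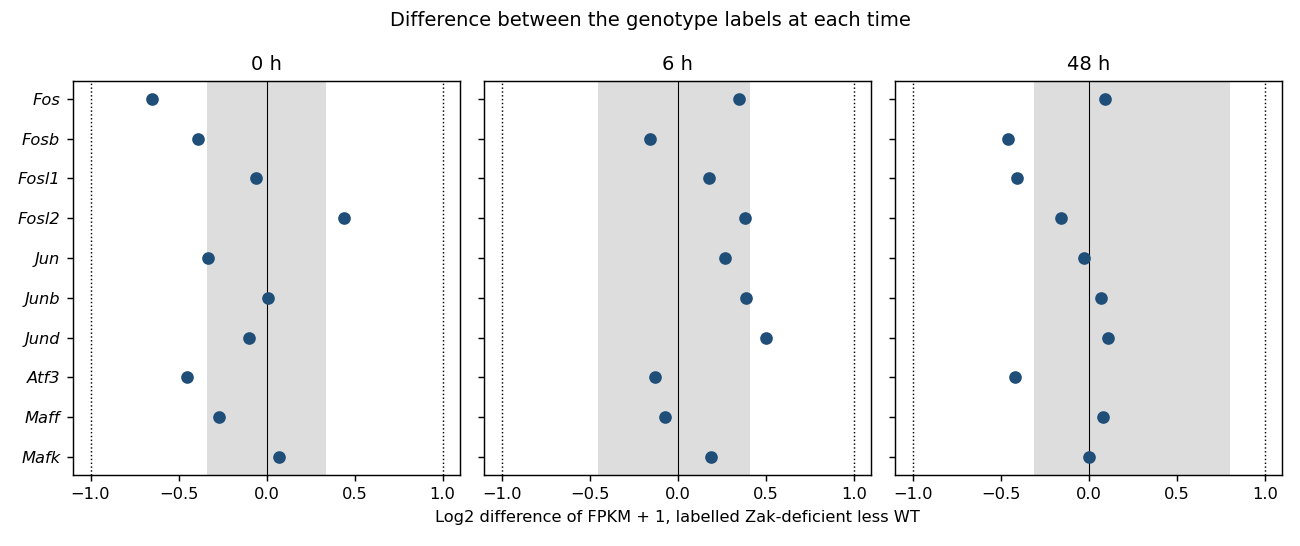
Log2 difference of FPKM + 1, library labelled Zak-deficient less WT, for the 10 genes at 0, 6 and 48 h; each point compares 1 library with 1 library, the grey band holds the central 95% of all 10347 genes and dotted lines mark 2-fold. Of the 10 genes 4 lie outside the band at 0 h (Fos lowest, Fosl2 highest), 1 at 6 h (Jund) and 3 at 48 h.

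The difference of the 6 h responses sets the rise under the label Zak-deficient against that in WT. It was above 0 for 9 of 10 members, with a median of 0.28 beside -0.00 over all genes, of which 49.4% were above 0. Of the 28 other immediate early genes, a list drawn up with earlier results known, 23 were above 0 (median 0.32). No member passed 2-fold, where 0.580% of genes did. Fos came closest: its response was 2.0-fold larger, a value just under the rule, with 0.2% of genes above it. It passed the rule with a common sum (log2 1.07), with median-ratio scaling (1.08) and with 0.1 FPKM added (1.15). Jun (1.52-fold) and Jund (1.51-fold) followed, and Fosl2 was the exception at -0.06, which came to 0.00 or 0.03 under other scalings. For Fos the lower resting value (log2 -0.65) and the higher 6 h value (0.35) both contribute by arithmetic, since the same 0 h libraries enter both comparisons.

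The difference of the 48 h responses passed 2-fold in 0 of 10 members and in 1.78% of all genes. Fos again had the highest value (1.68-fold) and Fosl2 the lowest, 1.51-fold in the other direction. For Fosl2 the 48 h levels were close, 10.29 against 11.62 FPKM, and the resting levels were not.

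Genes around AP-1 were read from lists of partners, regulators and targets. Of 19 other leucine zipper genes past the filter, 5 were called higher at 6 h in WT and 4 under the label Zak-deficient, with 0 lower, beside the shares of all genes given above. Among these were Cebpb (4.43 against 0.78 FPKM in WT), an inducible C/EBP factor, and Atf4 (268.56 against 100.78), the factor of the amino acid response. Crem, a cAMP-responsive factor, was called lower at 48 h under both labels (18.68 against 49.31 FPKM in WT). Batf, the partner of Jun proteins in T cells, was near constant at 16.83 to 22.55 FPKM. Of 6 partners and relatives of the small Maf proteins past the filter, 0 were called at 6 h, beside the same shares. At 48 h Nfe2l2, which encodes Nrf2, was called lower under both labels, at 16.18 against 48.69 FPKM in WT and 12.49 against 39.35 under the other. Bach1, a repressor that pairs with small Maf proteins, was called lower at 48 h under the label Zak-deficient alone (3.24 against 8.70 FPKM; 4.42 against 9.36 in WT), and the difference between labels was not called.

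At 6 h 8.93% of all genes were called higher in WT and 9.08% under the label Zak-deficient. Of 16 kinase and serum response genes that act upstream of AP-1, 0 were then called in WT and 1 under the other label. That gene was Srf, which encodes serum response factor, at 35.80 against 15.35 FPKM; in WT it stood at 29.24 against 16.54. The JNK gene Mapk8 stood at 7.15 to 9.55 FPKM and Mapk9 at 11.89 to 17.32 in all libraries. At 48 h Elk3, a ternary complex factor, was called higher (37.03 against 7.95 FPKM in WT) and Mef2d lower (29.62 against 110.27). Of 9 genes that control turnover of Jun proteins, Ndfip1, an activator of the ligase Itch, was called higher at 6 h (328.31 against 122.04 FPKM in WT) under each label. Usp28, a deubiquitinase that can stabilise Jun, was called lower under each label at both times, at 51.54, 24.81 and 6.86 FPKM in WT and 46.78, 22.51 and 6.70 under the other. Itch was called lower under each label at 48 h (12.83 against 28.45 FPKM in WT).

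Of 31 other immediate early genes listed, 28 passed the filter. At 6 h 16 were called higher in WT and 17 under the label Zak-deficient, where 8.93% and 9.08% of all genes were. In WT 0 were called lower and under the other label 1, where 1.39% and 1.52% of all genes were. The gene called lower was Klf6, a zinc-finger factor, at 43.42 against 91.84 FPKM, beside 42.49 against 84.51 in WT. Egr1, an early zinc-finger factor, stood at 195.94 against 5.03 FPKM in WT, and Nr4a1, an orphan receptor induced by the T cell receptor, at 733.97 against 35.90. At 48 h, 11 were called higher and 9 lower in WT, and 13 and 9 under the other label. Of all genes 17.8% and 12.3% were in WT, and 18.4% and 12.0% under the other label. Of 20 T cell genes known as targets of AP-1 or of NFAT with AP-1, 14 passed the filter. Among them 13 were called higher at 6 h under each label, beside the 6 h shares of all genes given above. Some passed the filter only through the stimulated libraries, such as Csf2 and Xcl1. Both were listed at 0 at rest under both labels, so that the counts of this list are a description. Tnf stood at 127.40 against 2.95 FPKM in WT and 141.60 against 1.76 under the label Zak-deficient. At 48 h, 12 and 11 of the list were called higher, where 17.8% and 18.4% of all genes were. Of 13 genes linked to Nrf2 and small Maf proteins, 4 and 3 were called higher at 6 h, where 8.93% and 9.08% of all genes were, and 7 and 7 at 48 h, where 17.8% and 18.4% were. The gene called lower at 48 h was Fth1, the ferritin heavy chain, at 293.07 against 730.27 FPKM in WT and 301.13 against 727.82 under the other label. Txnrd1, a thioredoxin reductase, stood at 10.34, 27.92 and 34.93 FPKM in WT. No gene past the filter on any of these lists was called between the labels at 0, 6 or 48 h, or in the difference of responses at 6 or 48 h.

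The genes whose course was most like that of each member were taken from 8153 other genes of mean 5 FPKM or more, by the distance between log2(FPKM+1) profiles over the 6 libraries, each centred on its own mean. With 6 values a close profile is easily found, and the distances are descriptions. Nearest to Fos were Sult2b1 (distance 0.37), Slc5a6 (0.50) and Nfkbid (0.54), and Nfkbid, which encodes a nuclear inhibitor of the NF-kB family, stood at 22.14, 130.76 and 32.49 FPKM in WT. Nearest to Atf3 were Map2k3 (0.66), a kinase that activates p38, Gfi1 (0.72) and Lta (0.72). Nearest to Jun were Slc10a3 (0.18), Zswim4 (0.20) and Chd7 (0.29). Fosl1 lay closest to Gart (0.22), an enzyme of purine synthesis, then Eif5a (0.31) and Sla (0.32). Jund lay closest to Atp23 (0.18), Arhgef2 (0.25) and Rbm14 (0.25), and Fosl2 to Plcxd2 (0.43), Ikzf3 (0.44) and Smad3 (0.56). For Fosb they included Taf4b (0.31) and Nlrc5 (0.37). They were for Maff Arfrp1 (0.15), Czib (0.16) and Zc3h12a (0.20), and for Mafk Usp31 (0.17), Colgalt1 (0.17) and Hivep2 (0.18). Junb varied by less than 2-fold over the libraries and was not matched.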

How the data were processed

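The deposited values are FPKM, 1 per gene and library, which the authors made with Bowtie and RSEM on mm10, per the submitters' processing notes; no version or setting is named in them. Of 18446 genes, 18326 had a symbol in the RefSeq table of GRCm38.p6 and 120 had none. With 1 library per group, libraries were compared singly and no test was fitted; a fit of genotype and time as added terms, which would take their interaction as error, was not made. Differences were taken on log2(FPKM+1) without rescaling and called at 2-fold, over 10347 genes whose mean reached 1 FPKM. Alternatives changed the filter (5 FPKM, or omitted), the pseudocount (to 0.1 or to 5 FPKM), the scaling (common sum, median ratio, upper quartile) or the rule (1.5-fold). The members and lists were chosen with earlier results of these data known. All 10 members are named; of each list, genes past 2-fold, at most 4 each way by size, could be named. Batf, Mapk8 and Mapk9 fall outside this rule and were chosen after their values were seen. Batf3 was not analysed here. Nearest genes were the 3 closest profiles for members that spanned 2-fold; 1 of them is not reported here. Transcript features, promoter motifs and fragment estimates were added after the values were seen; the GENCODE M21 protein-coding transcript with the longest coding part was used, found for 98.4% of filtered genes. The fold calls were tested on simulated data. Python 3.11.15, numpy 2.4.6, pandas 2.3.3 and matplotlib 3.10.9 were used.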

Additional observations from a re-analysis of the deposited data

Results flagged for a closer look

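Jun went in opposite directions under the labels at 48 h against 0 h, with a log2 difference of -0.27 in WT and 0.03 in the libraries labelled Zak-deficient, 0.31 apart. The difference was not tested, as each value comes from 1 library. The value of 0.03 became -0.08 with a common sum and -0.03 with median-ratio or upper-quartile scaling, so that the directions no longer differed.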

How the results depend on the processing

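With 1 library per group, no alternative can show how far a second culture would differ. The labels carry no replicate numbers, and pairing the genotypes by time was not done. The counts of called members, higher and lower together, moved by over 1.5 times in these cases. With 0.1 FPKM added, 1 member was called at rest between the labels and 1 in the difference of 6 h responses. With 5 FPKM added, calls under the label Zak-deficient were 2 at 6 h against 0 h, 2 at 48 h against 0 h and 3 at 48 h against 6 h. In the difference of 6 h responses, a common sum and median-ratio scaling each gave 1. With a 1.5-fold rule there were 6 calls at 6 h in WT and 7 under the other label, 1 between the labels at rest, and 3 and 2 in the differences of 6 h and 48 h responses. The filters and upper-quartile scaling moved no count by that much. Counts by direction moved in further cases. In WT the 5 members called lower from 6 h to 48 h became 3 with 5 FPKM added or with median-ratio scaling. With 5 FPKM added, Jun and Maff were the ones lost (log2 -0.65 each). Of the log2 differences of single members, 0 called ones changed sign under the pseudocounts, scalings or rule tried. Values under 5 FPKM, as for Fosb, Fosl1 and Atf3 at rest, depend most on the pseudocount.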
